A study of Mus musculus with 24 samples.

Results

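*Trp53*, the gene for the transcription factor p53, and 9 of its known target genes were followed in differentiating male mouse embryonic stem cells (mESCs) with and without knockdown of *Smarcc1* or *Smarca4*. The 10 genes were chosen by name and are 10 of the 25965 entries of the expression table, in which each was found once. All 10 passed the filter on low values that left 13296 genes for testing. Between day 4 and day 7 *Trp53* RNA fell 4.30-fold, and 6 of the 9 targets rose, beside 35.7% of all genes tested called higher and 28.8% called lower. Against the nonsilencing control (Nons), *Phlda3* and *Pmaip1* were lower in *Smarcc1* knockdown, *Phlda3* and *Cdkn1a* were lower in *Smarca4* knockdown, and no member was called higher in either, where 3.08% and 1.96% of all genes were called lower. With a replicate block for the culture series only the call of *Phlda3* in *Smarcc1* knockdown was left (limma adjusted *p* = 0.0237), and those of *Pmaip1* (0.148) and, in *Smarca4* knockdown, of *Cdkn1a* (0.130) and *Phlda3* (0.204) were lost.

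p53 is a tetrameric transcription factor that is kept at a low level by the ubiquitin ligase MDM2 and is stabilised by DNA damage and other stress. It binds paired decamer motifs near its targets, which include its own inhibitor, genes that stop the cell cycle and genes that trigger mitochondrial apoptosis. In mESCs p53 is abundant and has been linked to the repression of pluripotency genes during differentiation. Smarcc1 and Smarca4 are subunits of the BAF complex of embryonic stem cells, which moves nucleosomes with energy from ATP, and Smarca4 is its ATPase. RNA levels report neither the amount nor the modification of the p53 protein.

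The cells were C57/Bl6 mESCs that had been grown in 2i, a medium with inhibitors of MEK and GSK3, before they were weaned into DME HiHi, a medium with serum and without LIF. All cultures, Nons included, received a retroviral hairpin on day 2 of differentiation and puromycin from day 3, with libraries made from RNA of days 4, 5, 6 and 7. The analysis covered 5 series of cultures: Nons, Smarcc1.6 and Smarcc1.7 (*Smarcc1* knockdown), and Smarca4.4 and Smarca4.6 (*Smarca4* knockdown), each named after its hairpin. Each series had 1 library per day, which gave 4 Nons, 8 *Smarcc1* knockdown and 8 *Smarca4* knockdown libraries. A second Nons series of 4 labelled libraries was not analysed here. Both knockdowns were therefore compared with the same Nons series, whose own variation from culture to culture is unknown. For the Smarca4 libraries the genotype label names a knockdown of Smarcc, and the sample titles, which name Smarca4, were followed instead.

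The guide strands show what separated the cultures. They are written 5′ to 3′ with the seed, bases 2 to 8, in capitals.
Nons: cTTACTCTcgcccaagcgagag
Smarcc1.6: tGTAACTGcttcttcatcctgc
Smarcc1.7: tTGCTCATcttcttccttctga
Smarca4.4: tTTATTACtgtctgactccagt
Smarca4.6: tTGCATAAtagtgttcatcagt
The 5 seeds all differed. The complement of the Smarcc1.6 guide lies in the coding sequence of *Smarcc1* at chr9:110177472-110177493 (mm10, plus strand), and that of Smarcc1.7 lies in the coding sequence at chr9:110173911-110173932. The Smarca4.4 guide matches the 3′ untranslated region of *Smarca4* at chr9:21703327-21703348, and the Smarca4.6 guide matches its coding sequence at chr9:21670504-21670525. No guide came closer than 5 mismatches over its 22 bases to any annotated transcript of a member, over 50 pairs of hairpin and member. Matches of the seed alone were not searched for.

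The targeted genes were lower in the labelled libraries. *Smarcc1* was below same-day Nons in 8 of 8 *Smarcc1* knockdown libraries, at 23.7% to 60.1% of its level (log2 fold change -1.33, SE 0.205, limma adjusted *p* = 0.00115). *Smarca4* reached 21.6% to 55.3% of same-day Nons in the 8 libraries of its own knockdown (log2 fold change -1.79, SE 0.288, adjusted *p* = 0.00277). Library totals ranged from 6829596 reads (Smarca4.4 on day 5) to 27472885, and the members were covered by 222 to 18706 reads per library. All 6 pluripotency markers were detected in every library, with *Pou5f1* between 130.7 and 1607 rpm (reads scaled to library size), and summed to 361 to 2053 rpm in Nons, 515 to 2201 in *Smarcc1* knockdown and 328 to 2145 in *Smarca4* knockdown. Of the 6 differentiation markers, *T*, *Gata6* and *Sox17* stayed at or under 1.46 rpm. The 6 fibroblast markers summed to 6.05 to 119.7 rpm over all libraries, with *Col3a1* at or under 0.439 rpm and *Postn* without reads in 13 of 20 libraries. In such bulk cultures, fewer cells of a type and less RNA per cell cannot be told apart.

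Levels of different genes were compared per length, as rpm per kilobase of annotated exon (medians of the 5 libraries of a day). On day 4 *Bax* was highest at 140.1, followed by *Ccng1* at 99.1, *Pmaip1* at 93.2, *Trp53* at 68.0 and *Trp53inp1* at 62.9. *Mdm2* stood at 43.5, *Phlda3* at 23.4, *Cdkn1a* at 20.4, *Bbc3* at 10.6 and *Sesn1* at 8.39. The ranges over libraries of *Ccng1* and *Pmaip1*, of *Pmaip1* and *Trp53*, of *Trp53* and *Trp53inp1*, of *Phlda3* and *Cdkn1a*, and of *Bbc3* and *Sesn1* overlapped. Such ranges do not pair the genes within a library, so whether these neighbours differed was not tested. By day 7 *Ccng1* led at 189.8 rpm per kilobase, and *Trp53*, at 15.0, lay above *Sesn1* alone, at 7.13. Reads of *Cdkn1a* and *Sesn1* are uncertain because an annotated gene without an entry of its own in the table overlaps each.

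**Figure D1:**
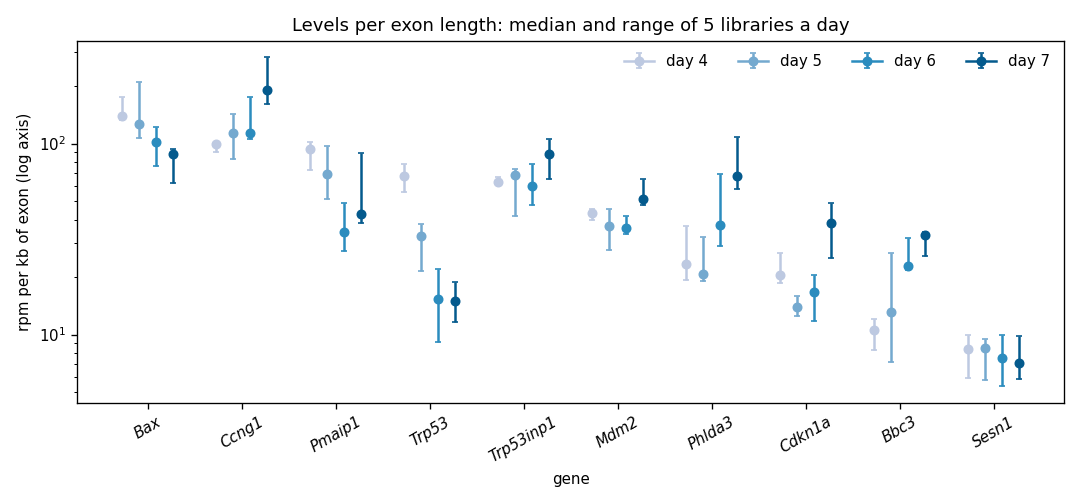
Level of each gene in rpm per kilobase of annotated exon on a log axis, by day of differentiation, with genes ordered by their day 4 median. Points are medians of the 5 libraries of a day and bars run from the lowest to the highest library. *Trp53* moved from 68.0 on day 4 to 15.0 on day 7, and *Ccng1* from 99.1 to 189.8.

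*Trp53* (chr11:69580359-69591873, plus strand, mm10) showed the largest change over the timecourse among the members. In Nons it stood at 233, 87.3, 53.1 and 60.8 rpm on days 4, 5, 6 and 7. The values in the same order of days were 316, 89.7, 61.8 and 76.1 rpm in Smarcc1.6, 283, 144, 76.4 and 65.7 in Smarcc1.7, 275, 133, 88.8 and 55.1 in Smarca4.4, and 225 (day 4), 154, 37.2 and 47.2 in Smarca4.6. The 5 libraries of day 4, at 225 to 316 rpm, lay above all libraries of days 5 to 7, none of which exceeded 154 rpm. The fall from day 4 to day 7, averaged over the 3 groups, was 4.30-fold (log2 fold change -2.10, SE 0.225, adjusted *p* = 3.67e-06). Days 6 and 7 overlapped, at 37.2 to 88.8 and 47.2 to 76.1 rpm.

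**Figure D2:**
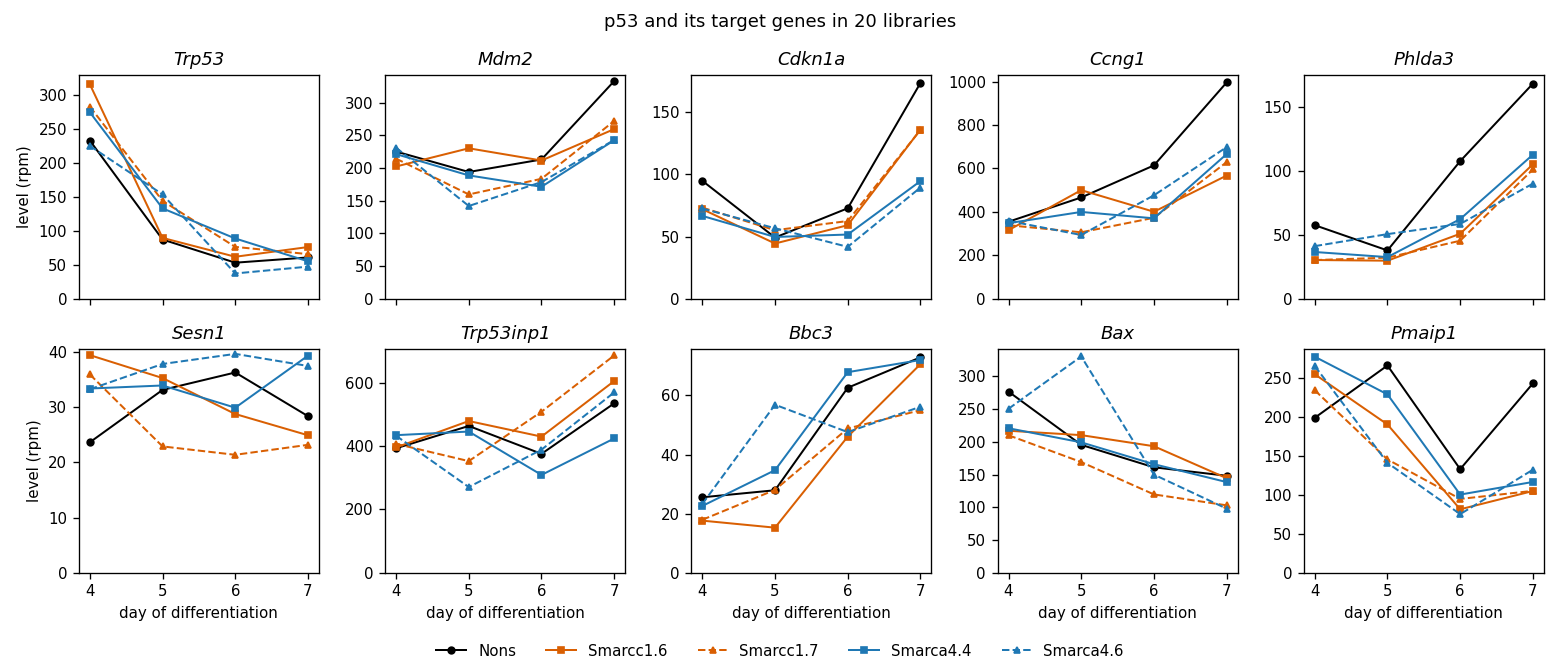
Level in rpm on a linear axis that starts at 0, against day of differentiation, with 1 panel per gene and 1 line per culture series (black, Nons; orange, Smarcc1 hairpins; blue, Smarca4 hairpins). *Trp53* falls after day 4 in all 5 series. The Nons line, 1 library a day, is the highest of the 5 on day 7 for 7 of the 10 genes, beside 21.2% of all genes tested. For *Bbc3* and *Bax* the gap is small.

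The targets moved in both directions. Between day 4 and day 7, 6 members rose, 3 fell including *Trp53*, and *Sesn1* did not pass the test, beside 35.7% of all genes tested called higher and 28.8% called lower. The median log2 fold change was 0.39 over the members and 0.08 over all genes. Centring each library on its median gene moved the median of all genes from 0.08 to -0.09, and the calls of *Mdm2* and *Trp53inp1* were lost with it.

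*Mdm2* (chr10:117688888-117710758, minus strand) encodes the ligase that holds p53 down and is itself a p53 target. Its Nons levels were 225, 194, 213 and 333 rpm on days 4 to 7. The knockdown libraries spanned 202 to 231 rpm on day 4 and 242 to 272 on day 7, so these days did not overlap. The rise was 1.27-fold (log2 fold change 0.34, SE 0.132, adjusted *p* = 0.0377). It also lost its call without a filter on low values and without any 1 of the 4 hairpins.

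Of the 4 cell cycle and growth genes *Ccng1*, *Cdkn1a* and *Phlda3* rose, in a comparison that called 35.7% of all genes higher. *Ccng1* (chr11:40748552-40755311, minus strand) encodes cyclin G1, which takes part in feedback on p53. It stood at 355, 466, 614 and 997 rpm in Nons, at 316, 500.2, 401 and 568 in Smarcc1.6, at 339, 306, 373 and 629 in Smarcc1.7, at 348, 399.7, 370.2 and 667 in Smarca4.4, and at 359, 293, 476 and 699 in Smarca4.6. All 5 libraries of day 7 were above all 5 of day 4, a rise of 2.15-fold (log2 fold change 1.10, SE 0.155, adjusted *p* = 4.15e-05). *Cdkn1a* (chr17:29090979-29100722, plus strand) encodes p21, the inhibitor of cyclin-dependent kinases that carries out p53-dependent arrest. Its levels passed through a minimum: the 5 libraries spanned 66.6 to 94.9 rpm on day 4, 44.4 to 56.6 on day 5, 41.7 to 72.7 on day 6 and 89.4 to 174 on day 7. The ranges of days 4 and 5 did not overlap, and day 7 was higher than day 4 by 1.65-fold (log2 fold change 0.73, SE 0.116, adjusted *p* = 0.000119).

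*Phlda3* (chr1:135766119-135769136, plus strand) encodes a pleckstrin-homology protein that restrains AKT. It spanned 30.2 to 57.5 rpm on day 4, 29.7 to 50.5 on day 5, 45.3 to 108 on day 6 and 90.0 to 168 on day 7. Day 7 lay above day 4 in every library, by 2.96-fold (log2 fold change 1.57, SE 0.140, adjusted *p* = 7.44e-07). *Sesn1* (chr10:41810574-41908424, plus strand), which encodes a sestrin that restrains mTORC1, stayed between 21.4 and 39.7 rpm in all 20 libraries (day 7 against day 4, log2 fold change -0.06, 95% confidence interval -0.40 to 0.28, adjusted *p* = 0.752).

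The apoptosis genes split by direction. *Bbc3* (chr7:16309616-16318205, plus strand) encodes PUMA, a BH3-only protein that activates BAX, and spanned 17.6 to 25.5 rpm on day 4 and 55.0 to 72.9 on day 7. It rose 3.03-fold (95% confidence interval of the log2 fold change 1.16 to 2.04, adjusted *p* = 1.76e-05), with its widest spread on day 5, when Smarcc1.6 stood at 15.2 rpm and Smarca4.6 at 56.9. *Trp53inp1* (chr4:11156431-11174379, plus strand), which encodes a stress protein that modulates p53 activity and autophagy, spanned 393 to 435 rpm on day 4 and 424 to 687 on day 7, and its rise of 1.35-fold (log2 fold change 0.44, SE 0.167, adjusted *p* = 0.0354) was lost without a filter and without Smarcc1.6, Smarcc1.7 or Smarca4.6.

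*Bax* (chr7:45461695-45466898, minus strand) encodes the protein that permeabilises the outer mitochondrial membrane. It spanned 210.1 to 277 rpm on day 4 and 97.9 to 148 on day 7, a fall of 1.88-fold (log2 fold change -0.91, SE 0.194, adjusted *p* = 0.00116). Its reads are uncertain because the annotated gene *Gm45808* overlaps it on the same strand. *Pmaip1*, on chromosome 18, encodes NOXA, a BH3-only protein that binds MCL1. It fell 1.61-fold between days 4 and 7 on average (log2 fold change -0.69, SE 0.157, adjusted *p* = 0.00186), but in Nons it was higher on day 7, at 243 rpm, than on day 4, at 199 rpm.

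**Figure D3:**
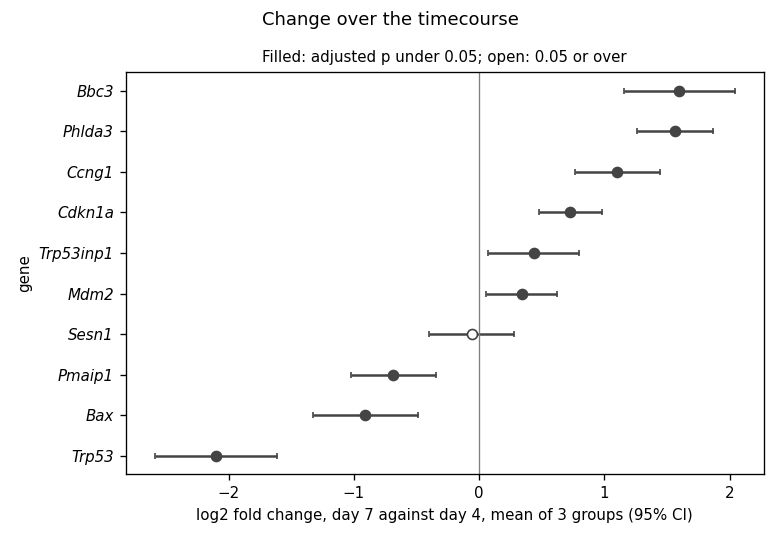
Log2 fold change of each member between day 7 and day 4, averaged over the 3 groups, with its 95% confidence interval from limma. Filled points passed the adjusted threshold and the open point did not: *Trp53*, *Bax* and *Pmaip1* lie below 0, *Sesn1* lies at -0.06, and the other 6 genes lie above 0.

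For the *Smarcc1* knockdown, 2 members were called lower than Nons and none higher, beside 3.08% and 7.54% of all genes tested. At an unadjusted limma *p* under 0.05, 4 members were lower and none higher, beside 3025 of all 13296 genes tested in either direction. By limma-voom, too, 2 members were called lower. Called genes over the whole table numbered 1003 higher and 409 lower, a split that quantile normalisation moved to 600 and 518. The median log2 fold change was -0.22 over the members and 0.06 over all genes, and 2 of the 10 members had a positive value, *Trp53* and *Trp53inp1*. The 5 pluripotency markers *Esrrb*, *Klf4*, *Nanog*, *Zfp42* and *Sox2* were higher in the same comparison, each in 8 of 8 libraries and by 0.45 to 1.84 on the log2 scale, while *Pou5f1* was not called (0.05, above Nons in 4 of 8). With the replicate block 4 of these 5 calls were left. Of the differentiation markers *Fgf5* was lower (-1.31, adjusted *p* = 0.00450, 8 of 8 libraries) and *Gata4* higher (1.14, adjusted *p* = 0.00652, 6 of 8). Of the fibroblast markers *Dcn* was lower (-2.95, adjusted *p* = 0.00195, 8 of 8 libraries, at most 5.85 rpm) and *Col1a1* higher (1.32, adjusted *p* = 0.0423, 8 of 8). The part of any of these in the results for the members was not tested.

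*Phlda3* showed the largest difference. On days 4, 5, 6 and 7 it stood at 57.5, 37.7, 108 and 168 rpm in Nons, at 30.2, 29.7, 50.8 and 105 in Smarcc1.6, and at 30.2, 32.1, 45.3 and 101 in Smarcc1.7. Every knockdown library was below Nons of its day, at 42.1% to 85.0% of the Nons level, and the hairpins differed from each other by 0.03 on the log2 scale (mean of 4 days, SD 0.115). The mean difference was 1.71-fold lower (log2 fold change -0.77, SE 0.128, adjusted *p* = 0.00185). It kept its call in each of the 17 alternative settings, with adjusted *p* between 0.000475 and 0.0314.

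*Pmaip1* changed its side of Nons with time. Nons stood at 199, 266, 133 and 243 rpm on days 4 to 7, Smarcc1.6 at 255, 190.1, 81.3 and 105, and Smarcc1.7 at 234, 145, 94.6 and 105. Both hairpins were above Nons on day 4 and below it on days 5, 6 and 7, when they reached 43.1% to 71.5% of its level. Over the 4 days *Pmaip1* was 1.46-fold lower (log2 fold change -0.55, SE 0.144, adjusted *p* = 0.0277). The call was lost in 6 of 17 alternative settings: with a replicate block for the culture series (adjusted *p* = 0.148), in an additive model of day (0.0507), and without Smarcc1.6 (0.0673), Smarcc1.7 (0.146), day 6 (0.0815) or day 7 (0.582). Without day 7 the log2 fold change was -0.33.

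The remaining members did not pass the threshold. *Ccng1* was below Nons in 7 of 8 libraries (log2 fold change -0.44, SE 0.143, adjusted *p* = 0.0687) and was called without day 5 (-0.51, adjusted *p* = 0.0108) and in the additive model (adjusted *p* = 0.0360), and *Cdkn1a* also in 7 of 8 (-0.25, SE 0.106, adjusted *p* = 0.184). *Trp53* was above Nons in 8 of 8 libraries, but by as little as 0.04 on the log2 scale, and its mean difference of 0.33 had a confidence interval from -0.11 to 0.78 (adjusted *p* = 0.379). *Bbc3* (-0.40), *Bax* (-0.20), *Mdm2* (-0.14), *Sesn1* (-0.08) and *Trp53inp1* (0.11) had adjusted *p* between 0.232 and 0.770.

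For the *Smarca4* knockdown, again 2 members were called lower and none higher, beside 1.96% and 4.75% of all genes tested. With the replicate block 0 of these 2 calls were left. The counts at an unadjusted limma *p* under 0.05 and by limma-voom were 4 and 2 lower, and none higher. That unadjusted threshold was passed by 2585 of all 13296 genes tested, in either direction. At the adjusted threshold 631 genes were higher and 261 lower. These became 541 and 353 after centring on the median gene and 351 and 313 after quantile normalisation. The median log2 fold change was -0.19 over the members and 0.06 over all genes. The pluripotency markers *Esrrb*, *Nanog* and *Zfp42* were higher in 8 of 8 of these libraries, by 0.78 to 1.24 on the log2 scale. *Pou5f1* was above Nons in 1 of 8 (-0.51, adjusted *p* = 0.122), *Klf4* in 7 of 8 (0.69, adjusted *p* = 0.0564) and *Sox2* in 7 of 8 (0.07, adjusted *p* = 0.799), none of them called. *Fgf5* (-1.10, adjusted *p* = 0.0193) and *Dcn* (-2.37, adjusted *p* = 0.0127) were again lower in 8 of 8 libraries, and *Gata4* was higher (0.89, adjusted *p* = 0.0383, 6 of 8). Their part in the results for the members was not tested here either.

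*Cdkn1a* stood at 94.9, 49.2, 72.7 and 174 rpm in Nons on days 4 to 7, at 66.6, 49.6, 51.6 and 94.6 in Smarca4.4, and at 72.6, 56.6, 41.7 and 89.4 in Smarca4.6. Both hairpins were below Nons on days 4, 6 and 7, at 51.5% to 76.5% of its level, and at 101% and 115% on day 5. The mean difference was 1.39-fold lower (log2 fold change -0.48, SE 0.106, adjusted *p* = 0.0182). In *Smarcc1* knockdown the same gene stood at 72.0, 44.4, 59.1 and 136 rpm in Smarcc1.6 and at 73.3, 55.1, 62.5 and 136 in Smarcc1.7, between Nons and the *Smarca4* hairpins on days 6 and 7.

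*Phlda3* stood at 36.5, 32.5, 62.2 and 113 rpm in Smarca4.4 and at 41.1, 50.5, 58.4 and 90.0 in Smarca4.6. It was below Nons in 7 of 8 libraries, the exception being Smarca4.6 on day 5, at 134% of Nons. The mean difference was 1.42-fold lower (log2 fold change -0.51, SE 0.128, adjusted *p* = 0.0321). The calls of *Cdkn1a* and *Phlda3* were both lost in 8 of 17 alternative settings: with the replicate block (adjusted *p* = 0.130 and 0.204), without any 1 of the 4 hairpins, and without day 4, 6 or 7. Without day 7 their log2 fold changes were -0.33 (adjusted *p* = 0.443) and -0.43 (adjusted *p* = 0.338).

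*Pmaip1* also crossed the Nons level in *Smarca4* knockdown, with 277, 229, 100.2 and 116 rpm in Smarca4.4 and 265, 141, 75.1 and 132 in Smarca4.6. It was above Nons in both libraries of day 4 and below it in the 6 of days 5 to 7, with a mean log2 fold change of -0.43 (SE 0.144, adjusted *p* = 0.108). Without Smarca4.4 on day 5, the shallowest library, it was called lower (-0.51, adjusted *p* = 0.0230). *Ccng1* (-0.39, below Nons in 7 of 8 libraries, adjusted *p* = 0.144) and *Mdm2* (-0.25, also 7 of 8, adjusted *p* = 0.294) did not pass the test. *Trp53* was above Nons in 4 of 8 libraries (log2 fold change 0.17, confidence interval -0.28 to 0.61). *Sesn1* (0.24), *Trp53inp1* (-0.13), *Bax* (-0.05) and *Bbc3* (0.04) had adjusted *p* of 0.387 or more.

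**Figure D4:**
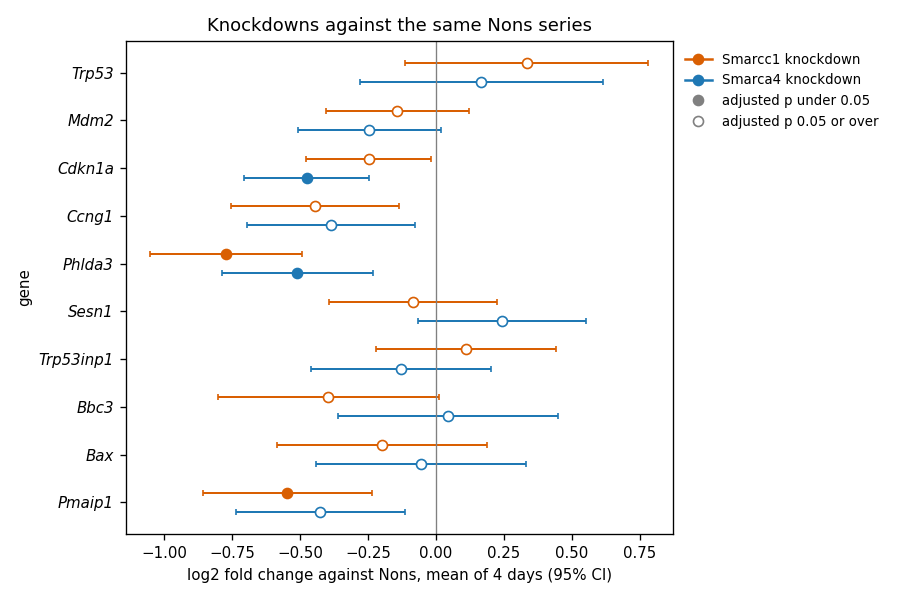
Log2 fold change against Nons for each member, averaged over days 4 to 7, with its 95% confidence interval from limma (orange, Smarcc1 knockdown; blue, Smarca4 knockdown; both against the same 4 Nons libraries). Filled points passed the adjusted threshold: *Phlda3* at -0.77 and -0.51, *Pmaip1* at -0.55 in *Smarcc1* knockdown and *Cdkn1a* at -0.48 in *Smarca4* knockdown.

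The place of Nons among the libraries of a day is given as a description. On day 7 Nons was above all 4 knockdown libraries for *Cdkn1a*, *Mdm2*, *Ccng1*, *Bbc3*, *Bax*, *Pmaip1* and *Phlda3*, 7 of the 10 members, beside 21.2% of all genes tested. For *Bbc3* (72.9 against 72.0 rpm) and *Bax* (148 against 144 rpm) the gap to the next library was small. On day 6 this held for 5 members, *Cdkn1a*, *Mdm2*, *Ccng1*, *Pmaip1* and *Phlda3* (16% of all genes), on day 5 for *Pmaip1* alone (10.4%) and on day 4 for *Cdkn1a*, *Bbc3*, *Bax* and *Phlda3* (24.6%). Nons was below all 4 knockdown libraries for *Trp53inp1*, *Pmaip1* and *Sesn1* on day 4 (31.3% of all genes), for *Trp53* on day 5 (15.1%), and for no member on day 6 (28.8%) or day 7 (37.6%). Nons was outside the knockdown libraries for 7 members on day 4, in both directions, beside 24.6% of all genes above and 31.3% below. On day 7 it was outside for 7 members, all above, beside 21.2% of all genes above and 37.6% below. Each day rests on 1 Nons library, so these counts describe that library and carry no test.

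**Figure D5:**
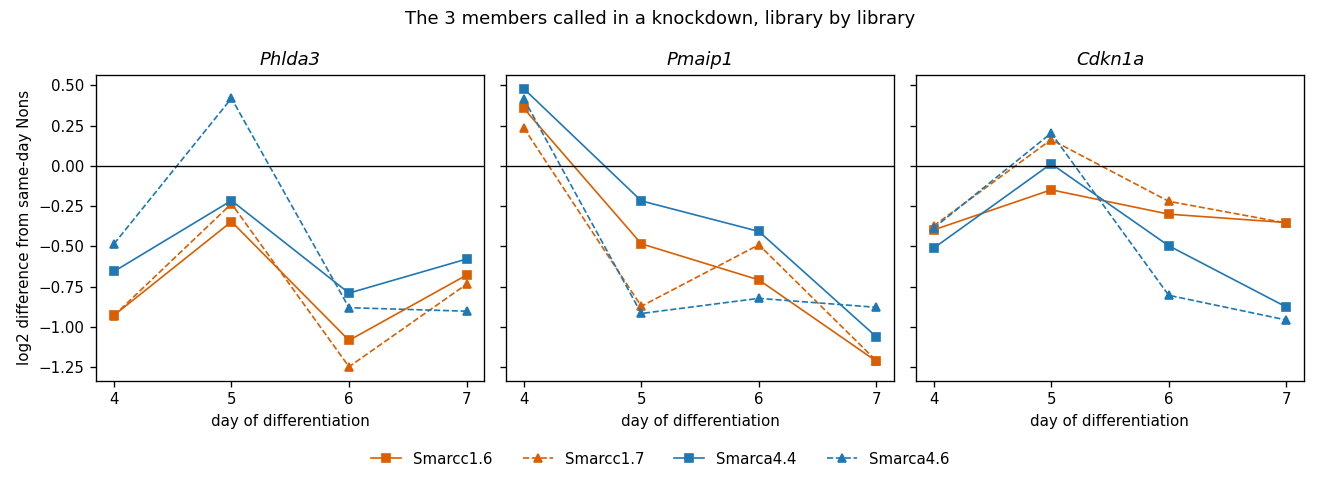
Log2 difference of each knockdown library from Nons of the same day for the 3 members called in a knockdown; the line at 0 is Nons. *Phlda3* is below 0 in 15 of 16 libraries, and *Pmaip1* is above 0 in the 4 libraries of day 4 and below it in the other 12. *Cdkn1a* lies between -0.148 and 0.204 on day 5, above 0 in 3 libraries, and is below 0 on the other days.

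Whether the difference from Nons changed with day was tested as a difference in slope. No member was called by limma or limma-voom for either knockdown, beside 0.94% of all genes for *Smarcc1* and 0.135% for *Smarca4* by limma. Of all 13296 genes tested, 1279 and 692 passed an unadjusted limma *p* of 0.05, and 2 members passed it in each knockdown. *Pmaip1* was among them in both, with a slope that was lower than in Nons by 0.44 on the log2 scale per day in *Smarcc1* knockdown (SE 0.129, limma unadjusted *p* = 0.00441, adjusted *p* = 0.154) and by 0.43 in *Smarca4* knockdown (SE 0.129, unadjusted *p* = 0.00546, adjusted *p* = 0.421). *Sesn1* was the other in *Smarcc1* knockdown (-0.31 per day, adjusted *p* = 0.428) and *Cdkn1a* the other in *Smarca4* knockdown (-0.22 per day, adjusted *p* = 0.928).

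In the test of the knockdowns against each other no member was called by limma or limma-voom. Of all genes, limma called 2.55% higher and 1.54% lower in *Smarcc1* than in *Smarca4* knockdown. An unadjusted limma *p* of 0.05 was passed by 2138 of all 13296 genes tested and by 4 members. These were *Bbc3* (log2 difference -0.44, confidence interval -0.77 to -0.11, adjusted *p* = 0.150), *Sesn1* (-0.33, -0.58 to -0.07, adjusted *p* = 0.163), *Cdkn1a* (0.23, 0.04 to 0.42, adjusted *p* = 0.196) and *Phlda3* (-0.26, -0.49 to -0.03, adjusted *p* = 0.224). The calls of *Pmaip1* in *Smarcc1* knockdown alone and of *Cdkn1a* in *Smarca4* knockdown alone therefore do not show that the knockdowns differed. Without day 5 *Cdkn1a* was called higher in *Smarcc1* knockdown (0.34, adjusted *p* = 0.0407), and without the shallowest library, Smarca4.4 on day 5, *Phlda3* was called lower (-0.34, adjusted *p* = 0.0313).

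Sequences upstream of the members are shown because the targets moved together only in part. A search of RefSeq promoters (GRCm38.p6, from 250 bases before to 50 bases after the start of transcription) for a pair of p53 decamers, 0 to 13 bases apart and with at most 2 mismatches outside the fixed C and G of each, found it in 4 of 12 promoters of 8 members (all but *Trp53inp1* and *Pmaip1*) and in 4.09% of 32851 promoters of that length. The decamer is its own reverse complement, so both strands were covered, and an exact single decamer was present in 8.36% of all promoters and in those of *Trp53* and *Mdm2*, which lacked a pair. Each of the 4 promoters held 2 such pairs. The best match is in capitals, with 10 bases to either side.
Cdkn1a: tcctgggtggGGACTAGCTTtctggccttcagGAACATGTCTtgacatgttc
Ccng1: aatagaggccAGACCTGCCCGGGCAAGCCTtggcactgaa
Bax: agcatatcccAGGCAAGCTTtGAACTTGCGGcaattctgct
Sesn1: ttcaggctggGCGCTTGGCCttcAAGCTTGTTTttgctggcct
The *Cdkn1a* stretch (chr17:29090896-29090947, plus strand) had 0 mismatches with 12 bases between the decamers. Its second decamer also forms the other *Cdkn1a* pair, with the 10 flanking bases that follow it directly, at 1 mismatch. The *Ccng1* stretch (chr11:40755452-40755491, minus strand) had 1 mismatch with none between. The *Bax* stretch (chr7:45467069-45467109, minus strand) and that of the downstream *Sesn1* promoter (chr10:41887243-41887285, plus strand) had 2 mismatches each. Of these genes *Cdkn1a* and *Ccng1* rose between days 4 and 7, *Bax* fell and *Sesn1* did not pass the test, and no such pair was in the windows of *Phlda3* and *Bbc3*. Sequence outside the windows was not searched, so a member without a pair there may have one elsewhere. Whether a pair goes with the direction of change was not tested.

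Another 34 p53 targets were examined as a list, of which 31 were tested. In *Smarcc1* knockdown 5 were lower and 1 was higher, beside 3.08% and 7.54% of all genes, with a median log2 fold change of -0.08 beside 0.06 over all genes. *Perp*, which encodes a desmosome-associated membrane protein, was lower by 1.71 on the log2 scale (SE 0.136, adjusted *p* = 8.74e-06) and ranged from 7.45 to 307 rpm over the libraries. The kinase gene *Plk2* (-0.80, adjusted *p* = 0.000434), the adenylate kinase gene *Ak1* (-0.81, adjusted *p* = 0.00254) and the microtubule regulator *Psrc1* (-0.59, adjusted *p* = 0.0104) were below Nons in 8 of 8 libraries, as was *Perp*. The remaining calls, named after their values were seen, were the antiproliferative gene *Btg2* (-0.51, adjusted *p* = 0.0194) and, higher, *Ei24* (0.43, adjusted *p* = 0.0352). With the replicate block 3 lower calls and no higher call were left.

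In *Smarca4* knockdown 6 of the 31 were lower (1.96% of all genes by limma) and none higher (4.75%) by limma or limma-voom, with a median of -0.11. At an unadjusted limma *p* under 0.05, 9 were lower and 2 higher, beside 2585 of all 13296 genes tested in either direction. *Plk2* (-0.77, adjusted *p* = 0.00108) and the mitotic spindle gene *Ckap2* (-0.51, adjusted *p* = 0.0215) were below Nons in 8 of 8 libraries. *Perp*, named after its value was seen (-1.20, adjusted *p* = 0.000394), was below it in 7 of 8 and was lower in *Smarcc1* than in *Smarca4* knockdown by 0.50 (adjusted *p* = 0.0231, 0.175 with the replicate block), and 3 of the 6 calls were left with the replicate block. From day 4 to day 7 the list moved in both directions, with 18 genes higher and 7 lower, beside 35.7% and 28.8% of all genes.

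Regulators of p53 were examined as another list. Of 20 tested, none was lower and 1 was higher in *Smarcc1* knockdown, beside 3.08% and 7.54% of all genes. This was *Sirt1*, a deacetylase of p53 (0.58, adjusted *p* = 0.00622, above Nons in 7 of 8 libraries, 0.0590 with the replicate block). In *Smarca4* knockdown limma and limma-voom called none, where limma called 4.75% of all genes higher and 1.96% lower. At an unadjusted limma *p* under 0.05, 1 was lower, beside 2585 of all 13296 genes tested in either direction. *Sirt1* was named after its value was seen. Between days 4 and 7, 8 were lower and 2 higher, where 28.8% and 35.7% of all genes were. Among those lower, named after their values were seen, were *Sirt1* (-1.74, adjusted *p* = 1.25e-07), the checkpoint kinase gene *Chek1* (-1.29, adjusted *p* = 8.01e-06) and the damage kinase gene *Atm* (-1.15, adjusted *p* = 0.00731). *Mdm4*, whose protein is the partner of MDM2, did not pass the test over time (-0.31, adjusted *p* = 0.470).

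Of 19 BCL2 family and caspase genes, 3 were lower in *Smarcc1* knockdown, beside 3.08% of all genes. Among them were the survival genes *Bcl2* (-1.15, adjusted *p* = 0.0316) and *Bcl2l1* (-0.51, adjusted *p* = 0.00803), each in 8 of 8 libraries. None of the 3 calls was left with the replicate block (adjusted *p* = 0.176 for *Bcl2* and 0.0607 for *Bcl2l1*). In *Smarca4* knockdown limma and limma-voom called none of the 19, where limma called 4.75% of all genes higher and 1.96% lower. At an unadjusted limma *p* under 0.05, 5 were lower and 1 higher, beside 2585 of all 13296 genes tested in either direction. Over time 10 rose and 3 fell, beside 35.7% and 28.8% of all genes. Of 12 cell cycle genes repressed through p21 and the DREAM complex none was called by limma or limma-voom in either knockdown. For *Smarcc1* and *Smarca4* knockdown limma called 10.6% and 6.71% of all genes in either direction. At an unadjusted limma *p* under 0.05, 1 of the 12 was lower in *Smarcc1* knockdown and 0 in *Smarca4* knockdown, beside 3025 and 2585 of all 13296 genes tested. Over time 2 of the 12 rose and 2 fell, beside the same 35.7% and 28.8% of all genes. The factor ATF4 shares targets such as *Sesn2* and *Ddit4* with p53. Of 6 genes listed for ATF4, *Atf4* itself among them, 1 was lower in both knockdowns, beside 3.08% and 1.96% of all genes. This was *Atf3*, lower by 1.01 (adjusted *p* = 0.00129) and 0.95 (adjusted *p* = 0.00373). All 6 rose over time, beside 35.7% of all genes.

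The genes most like *Trp53* over the 20 libraries, by Pearson correlation of log2 rpm among the genes tested, were *Zscan10* (*r* = 0.989), *Ywhag* (0.982) and *Tbrg4* (0.980). Those most like *Cdkn1a* were *Slc25a25* (0.920), *Mcam* (0.908) and *Unc119b* (0.907). The libraries share days and culture series, so the points are not independent. Among the members themselves the 45 pairs had correlations from -0.73 to 0.84, with a median of 0.04. After the mean of each day was subtracted they ran from -0.67 (*Trp53* and *Ccng1*) to 0.80 (*Mdm2* and *Ccng1*), with a median of 0.13.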

How the data were processed

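Of the labelled samples, 20 RNA-seq libraries were used, and 4 libraries labelled Nons replicate 2 were not. The deposited log2 rpm values came from SeqMonk, after the authors had trimmed single-end reads of 75 bp and mapped these by tophat or HISAT2 to mm10. The annotation and the use of strand are not given in the sources used here, so overlapping genes are uncertain. An entry without reads carries 0.9 of a read, from which the reads of each library were recovered (100% of values below 1000 reads were within 0.02 of a whole number). Groups came from the sample titles.

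limma 3.58.1 in R 4.3.3 (lmFit, eBayes with trend) was fitted to the log2 values of 13296 genes with a mean of at least 0, with a mean for each of 12 combinations of group and day. All 8 residual degrees of freedom are differences between hairpins of a pair, so *p*-values measure the spread between cultures that received different hairpins. These differences come from 2 pairs of series on 4 days, and Nons adds none. Without the replicate block the days of a series are treated as independent. *p*-values are two-sided and Benjamini-Hochberg adjusted over all genes tested, with a threshold of 0.05. Every member was named. From the other lists, up to 4 genes per list and knockdown were named, with the largest changes past the threshold and all 8 libraries on the same side of Nons. The values of 1 gene that this rule names are not reported here. The marker lists of cell types were given as counts with the genes called. Exon lengths came from GENCODE M21. Hairpin numbers are hairpin names and pair no cultures. The replicate block is the culture series, entered as a random effect. The members and lists were chosen with earlier results of these data known. Tested on simulated data for *Smarcc1* knockdown against Nons, with a log2 change of 1 in 200 of 13482 genes, the fit recovered 100% of them and called 8 unchanged genes. The simulated reads were drawn independently for each library, without effects of culture series or hairpin. They therefore do not tell how many calls in the real data are false. The alternatives were other filters, 1 added to rpm, 2 scalings, limma-voom on recovered reads, an additive model of day, the replicate block, and each hairpin, each day and the shallowest library left out.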

Additional observations from a re-analysis of the deposited data

Results flagged for a closer look

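A single library stood apart from the other 7 of its knockdown in 2 of the 20 sets checked (10 members in 2 knockdowns, 8 log2 differences from same-day Nons each), by Dixon's test at its 95% critical value. Chance flags about 1 in 20 such sets. *Cdkn1a* was above Nons by 0.164 in Smarcc1.7 on day 5, where the other 7 *Smarcc1* knockdown libraries were below Nons, and the gap took 0.556 of the whole range. *Bax* was above Nons by 0.759 in Smarca4.6 on day 5, a gap of 0.528 of the range.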

How the results depend on the processing

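Of 732 values of single members under an alternative, 680 kept their direction and their side of the threshold, 33 lost a call, 5 gained one and 14 changed sign, none of the last being a called value. With the replicate block (the culture series, with a consensus correlation of 0.217) genes called fell from 1412 to 605 for *Smarcc1* against Nons, from 892 to 258 for *Smarca4* against Nons and from 544 to 105 between the knockdowns, with 1, 0 and 0 members called. It raised the genes called for the slopes from 125 to 292 and from 18 to 52. With a mean of at least 10 rpm required, genes called were 579, 324 and 241 for the 3 comparisons of groups, and 24 and 4 for the slopes. The slopes also gave 67 and 6 with 1 added to rpm, 22 and 4 after quantile normalisation, and 11 for *Smarca4* without a filter. The cause was not tested for any of these.

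Leaving out 1 of the 4 hairpins gave 843 (without Smarcc1.7) to 1288 genes and 1 to 2 members for *Smarcc1* against Nons, 277 (without Smarca4.6) to 656 genes and 0 members for *Smarca4* against Nons, 49 (without Smarcc1.6) to 263 genes between the knockdowns, 0 to 39 for the *Smarcc1* slope and 0 for the *Smarca4* slope. Without day 4, 327 genes were called between the knockdowns and 497 for *Smarca4* against Nons. Without day 6 the counts were 793 (*Smarcc1*), 431 (*Smarca4*) and 173 (between the knockdowns), and without day 7 they were 379, 132 and 56. Members called were 1 for *Smarcc1* without day 6 or day 7, and 0 for *Smarca4* without day 4, 6 or 7. Between the knockdowns 1 member was called without day 5, and 1 member and 1067 genes without Smarca4.4 on day 5. These fits have fewer libraries, and slopes were not fitted without a day or in the additive model.

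The sign changed for *Sesn1* in *Smarcc1* knockdown (-0.25 to 0.077 with 1 hairpin left out, positive without Smarcc1.7, and 0.070 without day 6). In *Smarca4* knockdown it changed for *Bbc3* (-0.030 centred, -0.0079 after quantile normalisation, -0.16 without day 5), *Trp53* (-0.027 without Smarca4.4 to 0.36 without Smarca4.6, and -0.015 without day 5) and *Bax* (0.0050 without day 4, 0.043 without day 7 and 0.036 without Smarca4.4 on day 5). Between the knockdowns it changed with 1 hairpin left out for *Ccng1* (-0.13 to 0.013) and *Bax* (-0.34 to 0.050), both positive without Smarcc1.7, for *Pmaip1* (-0.25 to 0.0024, positive without Smarca4.4) and for *Trp53* (-0.029 to 0.36, negative without Smarca4.6).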
